A study of Mus musculus with 10 samples.

Results

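Potassium secretion by the stria vascularis was followed through 7 genes of the 54532 in the count tables: Slc12a2, Atp1b2, Kcnj10, Kcnj16, Kcnq1, Kcne1 and Bsnd. They were chosen by name, as transporters and channel subunits with known places in the strial potassium circuit, with earlier results of these data known. All 7 were among the 18329 genes with enough reads to test. RNA was sequenced from the cochlea of 12-month-old mtKeima mice, a transgenic line on a mixed genetic background that carries a mitochondria-targeted fluorescent reporter of mitophagy and was genotyped wild type for Cdh23 and Nnt. Of the 10 mice, 5 received nicotinamide riboside (NR, a precursor of NAD+) in the drinking water at 7 mg/ml (24 mM) for 10 months, from 2 months of age, and 5 received regular water (Veh). Both groups carry the reporter, so it does not separate them. The comparison asks how the level of each gene differed after long-term NR. Because each library holds the RNA of cochlear tissue with all its cell types, fewer cells of a type and less RNA per cell cannot be told apart.

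Libraries held 17060379 to 22931581 counted reads in the NR group and 20004667 to 24419230 in the Veh group. Levels are given as CPM, the reads of a gene per 1000000 reads of the TMM-corrected library size. All 10 mice are labelled female, whereas the methods describe cochleae of male mice for RNA isolation. Xist, the RNA of the inactive X chromosome, lay at 0.0882 to 0.405 CPM, while the Y-linked Ddx3y lay at 64.5 to 85 CPM, Kdm5d at 24.3 to 30.7, Uty at 24.9 to 31.8 and Eif2s3y at 54.9 to 68.5 CPM, so the transcripts went against the labelled sex in every mouse of either group. In marker levels, Veh mice 3 and 4 stood apart from the other mice. Their summed hair cell markers were at 445 and 482 CPM, against 167 to 291 CPM in the NR group. Their summed blood markers were at 8262 and 5965 CPM, below every other mouse. The fitted differences and counts that lean on these libraries are given with and without them. Over all genes, Veh mouse 2 differed most from the other Veh mice, by a chi-square of read counts of 84.1 to 118 per degree of freedom. Its 10 most abundant genes held 9.13% of its reads, the largest share of any mouse. Veh mouse 2 was left out only as a single mouse.

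The stria vascularis is the layered epithelium on the lateral wall of the cochlear duct that fills the duct with potassium-rich endolymph and keeps it at a strongly positive voltage, the endocochlear potential, which drives current through the hair cells. Its marginal cells take potassium up from the narrow intrastrial space through the sodium-potassium-chloride cotransporter NKCC1 and the Na,K-ATPase, and release it into endolymph through a channel made of KCNQ1 and KCNE1. Chloride that enters with the potassium leaves again through basolateral chloride channels, of which barttin is a subunit. Intermediate cells, which are melanocytes, set the voltage with the inward rectifier KCNJ10. Inherited loss of NKCC1, KCNQ1, KCNE1, KCNJ10 or barttin causes deafness in mice or humans.

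Promoter sequence from the RefSeq promoter table (build GRCm38.p6) is shown for 2 of the 7 genes, the inward rectifier pair Kcnj10 and Kcnj16. Promoters of the other genes are not reported here. Each sequence is the 250 bases upstream of the annotated start, on the plus strand, at chr1:172340960-172341209 for Kcnj10 and at chr11:110967783-110968032 for the first of the 4 starts listed for Kcnj16. Capitals mark a match to AAGGTCA, the core of the estrogen-related receptor element, here read on the reverse strand.
Kcnj10 promoter: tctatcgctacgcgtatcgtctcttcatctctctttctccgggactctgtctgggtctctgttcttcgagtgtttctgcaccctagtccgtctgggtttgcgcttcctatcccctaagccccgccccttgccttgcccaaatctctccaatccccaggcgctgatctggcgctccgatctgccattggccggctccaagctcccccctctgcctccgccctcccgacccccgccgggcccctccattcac
Kcnj16 promoter: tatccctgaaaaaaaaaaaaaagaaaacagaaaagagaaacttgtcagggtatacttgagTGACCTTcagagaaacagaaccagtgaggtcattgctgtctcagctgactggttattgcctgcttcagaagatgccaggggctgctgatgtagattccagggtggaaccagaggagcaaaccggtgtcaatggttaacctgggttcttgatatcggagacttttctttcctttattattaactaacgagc
The Kcnj10 window is a GC-rich stretch with 62% G or C and 17 CpG dinucleotides, and the Kcnj16 window is poorer, with 42.8% and 3 CpG, around a median over 32851 windows of 52.4% and 6 CpG. Searched on both strands, AAGGTCA occurred once, in the Kcnj16 window 190 bases before the start, and in none of the 3 windows at the later Kcnj16 starts, and 4.08% of all windows hold it. Neither TCATGTG, the M-box bound by the melanocyte factor MITF and found in 3.25% of windows, nor the E-box CACGTG, found in 6.02%, occurred in any Kcnj10 or Kcnj16 window, and these letters do not overlap AAGGTCA.

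All 7 genes had a lower fitted level in the NR group, and 4 of them were lower at an unadjusted p of 0.05 in edgeR's quasi-likelihood test: Slc12a2, Kcnj10, Atp1b2 and Kcne1. Of all tested genes, 4.88% were called lower at that threshold (9.71% in either direction) and 52.9% had a log2 fold change below 0. The median log2 fold change of the 7 genes was -0.53, against -0.01 over all tested genes. None of the 7 passed an adjusted p of 0.05 (Benjamini-Hochberg over all tested genes, 0% of which were called), and the smallest adjusted p of any gene was 0.224. DESeq2's Wald test put the same 4 genes past its unadjusted threshold, against 5.12% of all genes called lower. At an adjusted p of 0.05 it called 103 genes, and Slc12a2 was the 1 of the 7 among them, at an adjusted p of 0.0469 (0.284% of genes called lower). No gene of the 7 separated the groups completely, which 0.878% of all tested genes did in the lower direction. Leaving out both Veh mice 3 and 4, an alternative chosen after seeing the data, left 1 of the 7, Slc12a2, lower at the unadjusted threshold. The median of the 7 was then -0.20, and 5.58% of 18671 genes were called lower. These mice had the highest Veh levels of all 7 genes, so leaving them out could only raise the log2 fold changes.

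**Figure D1:**
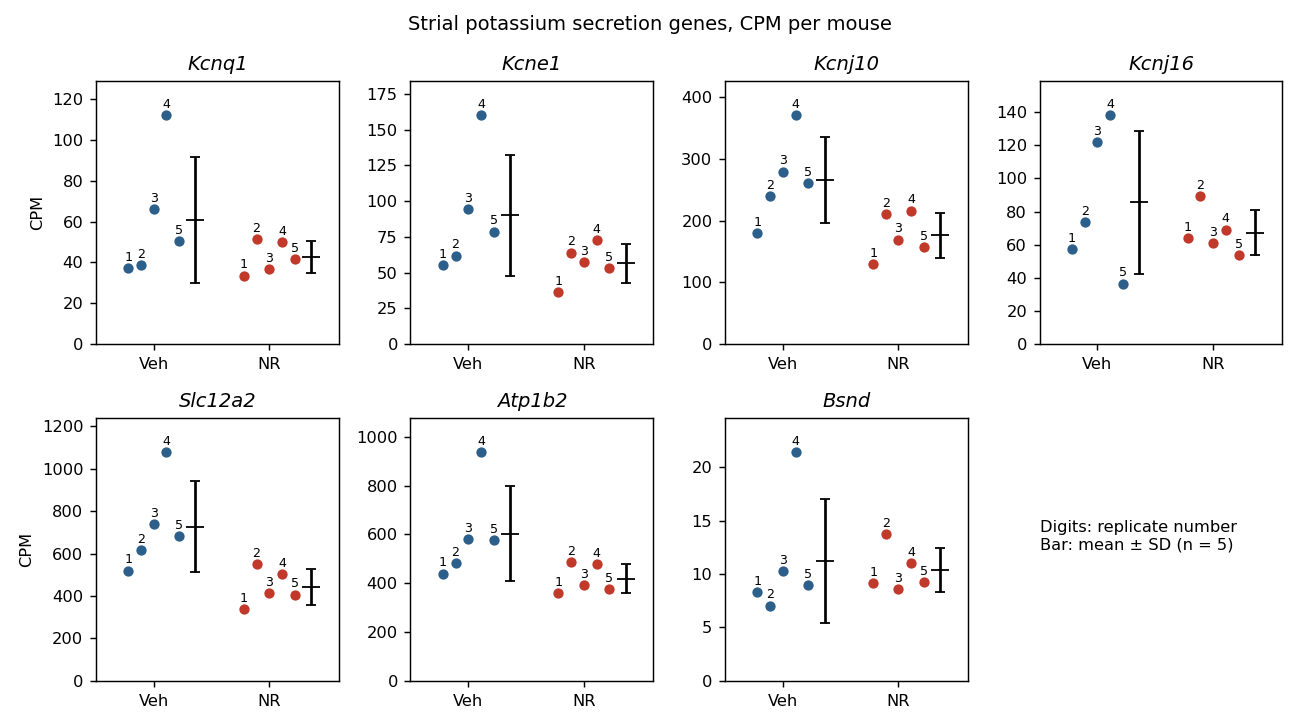
CPM of each of the 7 genes (y axes from 0) in the 5 Veh mice (blue) and the 5 NR mice (red), with the replicate number above each point and the group mean ± SD beside it. Veh mouse 4 is the highest point in all 7 panels, and the groups overlap in each.

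The cotransporter and the pump subunit on the uptake side of the marginal cell were the most abundant of the 7. Slc12a2 (ENSMUSG00000024597, chr18:57878678-57946821, plus strand, build mm10) encodes NKCC1, which brings potassium into the marginal cell with sodium and chloride. Its level was 339, 552, 415, 502 and 407 CPM in NR mice 1 to 5, and 520, 616, 739, 1078 and 683 CPM in Veh mice 1 to 5. Of the 5 NR mice, 4 lay below the lowest Veh mouse, and NR mouse 2 was the one that overlapped. The group means were 443 ± 83.9 CPM with NR and 727 ± 212 CPM with Veh (SD, n = 5 each), a fitted ratio of 0.609. In edgeR the log2 fold change was -0.72 (SE 0.19, adjusted p = 0.408). An exact two-sided permutation test of the mean log2 CPM over the 252 labelings, which cannot go below 0.00794, gave p = 0.0159. Leaving out each mouse in turn moved the log2 fold change between -0.81 and -0.53, and all 10 of these fits passed the unadjusted threshold. Without Veh mice 3 and 4 it was -0.45 (SE 0.155, adjusted p = 0.386), a smaller difference that still passed the unadjusted threshold.

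Atp1b2 (ENSMUSG00000041329, chr11:69599736-69605942, minus strand) encodes the β2 subunit of the Na,K-ATPase, which holds marginal cell sodium low and is also made by glia. It was measured at 358, 486, 391, 478 and 376 CPM in the NR mice and at 439, 482, 581, 937 and 578 CPM in the Veh mice. Veh mouse 4 lay far above the rest, and 3 NR mice lay below every Veh mouse. Mean levels were 418 ± 59.8 CPM with NR and 603 ± 197 CPM with Veh (SD, n = 5 each). The edgeR log2 fold change was -0.53 (SE 0.19, adjusted p = 0.458), and the exact permutation test gave p = 0.0397. Veh mouse 4 carried much of the size: without it the log2 fold change was -0.31 (adjusted p = 0.55), still past the unadjusted threshold, and without Veh mice 3 and 4 it was -0.25 (adjusted p = 0.575), no longer past it.

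Kcnj10 (ENSMUSG00000044708, chr1:172341210-172374085, plus strand) encodes Kir4.1, the inward rectifier of strial intermediate cells that satellite glia and supporting cells express too. Kcnj10 was at 130, 210, 169, 216 and 157 CPM in the NR mice and at 179, 240, 279, 370 and 260 CPM in the Veh mice. NR mice 1, 3 and 5 were below all Veh mice, and the overlap came from Veh mouse 1. The mean was 176 ± 36.4 CPM with NR against 266 ± 69.3 CPM with Veh (SD, n = 5 each), and edgeR gave a log2 fold change of -0.59 (SE 0.19, adjusted p = 0.434). By the exact permutation test p was 0.0317. The edgeR difference stayed between -0.70 and -0.44 when single mice were left out, always past the unadjusted threshold, and was -0.36 and no longer past it without Veh mice 3 and 4 (adjusted p = 0.561).

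Kcnj16 (ENSMUSG00000051497, chr11:110968033-111027968, plus strand) encodes Kir5.1, a subunit that is silent alone in most cells and joins Kir4.1 in mixed channels. On the log2 scale Kcnj16 had the widest scatter among Veh mice (SD 0.79). NR mice were at 63.9, 89.3, 60.8, 69.1 and 53.7 CPM, and Veh mice at 57.3, 73.6, 122, 138 and 36.6 CPM. The NR mice lay wholly inside the Veh range, whose lowest value was Veh mouse 5. Means were 67.4 ± 13.5 and 85.5 ± 43.1 CPM (SD, n = 5 each), with a log2 fold change of -0.34 (SE 0.31, edgeR adjusted p = 0.728), smaller than the spread between mice. Without Veh mice 3 and 4, the highest of the Veh group, the log2 fold change was 0.28 (SE 0.224, edgeR adjusted p = 0.744).

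The apical exit channel of the marginal cell is built from Kcnq1 and Kcne1, which encode its pore and its accessory subunit. Kcne1 (ENSMUSG00000039639, chr16:92345982-92359468, minus strand) was at 36.4, 64, 57.2, 72.9 and 53.1 CPM in the NR mice and at 55.1, 61.9, 94.2, 160 and 78.8 CPM in the Veh mice. NR mice 1 and 5 were below every Veh mouse, and Veh mice 1 and 2 lay within the NR range. Mean levels were 56.7 ± 13.6 CPM with NR and 90 ± 42.1 CPM with Veh (SD, n = 5 each). The log2 fold change was -0.67 (SE 0.28, edgeR adjusted p = 0.488), whereas the exact permutation test gave p = 0.0873. The edgeR call was lost on leaving out any 1 of NR mouse 1 (-0.53, adjusted p = 0.74), NR mouse 3 (-0.65, adjusted p = 0.786), NR mouse 5 (-0.63, adjusted p = 0.657), Veh mouse 3 (-0.63, adjusted p = 0.684) or Veh mouse 4 (-0.35, adjusted p = 0.668). Without both Veh mice 3 and 4 it was -0.20 (adjusted p = 0.805).

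Kcnq1 (ENSMUSG00000009545, chr7:143106362-143427042, plus strand) was at 33.6, 51.3, 36.9, 50.1 and 41.8 CPM in the NR mice and at 37.2, 38.7, 66.2, 112 and 50.5 CPM in the Veh mice. Veh mice 3 and 4 were above all NR mice, and the other 3 Veh mice lay within the NR range. Kcnq1 averaged 42.8 ± 7.83 CPM with NR and 60.8 ± 30.6 CPM with Veh (SD, n = 5 each), a log2 fold change of -0.51 that did not pass the unadjusted threshold (SE 0.28, edgeR adjusted p = 0.582). On leaving out Veh mouse 1 or Veh mouse 2 it passed the unadjusted threshold, at -0.63 (adjusted p = 0.378) and -0.62 (adjusted p = 0.473). Without Veh mice 3 and 4 the difference was 0.03 (SE 0.159, adjusted p = 0.976). Reads were counted without strand, and 121 of the 4093 exon bases of Kcnq1 (2.96%) are shared with its antisense RNA Kcnq1ot1, itself at 8.05 to 16.2 CPM. Reads in those bases cannot be assigned to a strand.

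Bsnd (ENSMUSG00000025418, chr4:106483456-106492283, minus strand), which encodes barttin, was the least abundant of the 7, with 157 to 485 reads a mouse against 698 or more for the others. It was at 9.16, 13.7, 8.61, 11 and 9.26 CPM in the NR mice and at 8.29, 7.05, 10.3, 21.4 and 8.96 CPM in the Veh mice. The groups overlapped in part: Veh mice 1 and 2 were below every NR mouse, Veh mouse 4 was above every NR mouse, and 1 NR mouse was below the Veh median. The means were 10.4 ± 2.09 and 11.2 ± 5.81 CPM (SD, n = 5 each), and the log2 fold change was -0.11 (SE 0.28, edgeR adjusted p = 0.908). Without Veh mouse 4 it was 0.26 (SE 0.168, edgeR adjusted p = 0.699), and without Veh mice 3 and 4 it was 0.36 (SE 0.174, edgeR adjusted p = 0.55), so the direction for Bsnd depended on that mouse.

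**Figure D2:**
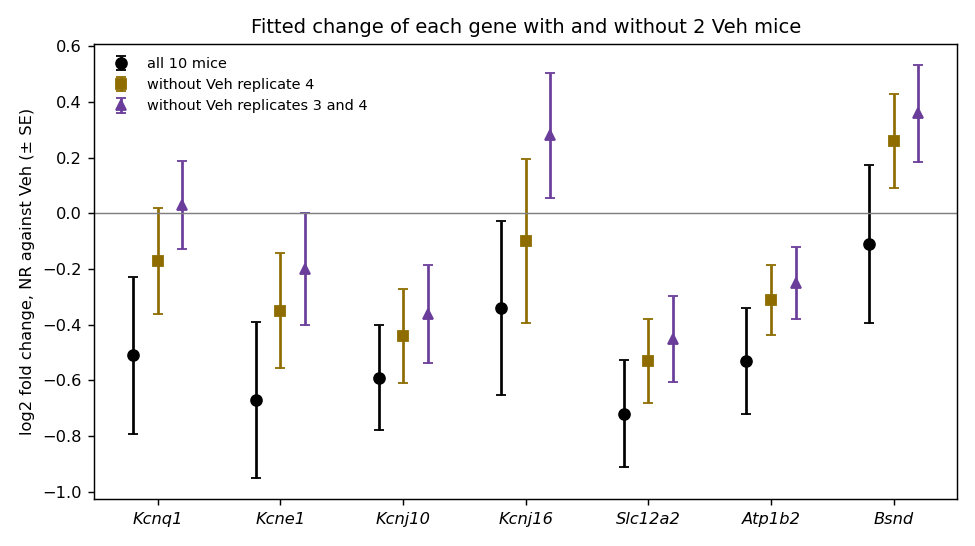
Log2 fold change of NR against Veh (± SE, edgeR) for each gene, with all 10 mice (black circles), without Veh mouse 4 (brown squares) and without Veh mice 3 and 4 (purple triangles). Slc12a2 stays lowest in all 3 fits, from -0.72 to -0.45, while Kcnq1, Kcnj16 and Bsnd cross 0, to 0.03, 0.28 and 0.36.

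Per kilobase of exon, so that genes can be compared, the mean Veh level was 148 ± 48.1 CPM per kb for Atp1b2, 112 ± 32.5 for Slc12a2, 49.1 ± 12.8 for Kcnj10, 28 ± 13.1 for Kcne1, 21.7 ± 10.9 for Kcnj16, 14.9 ± 7.48 for Kcnq1 and 4.06 ± 2.11 for Bsnd (SD, n = 5). The order was the same with NR, from 102 ± 14.6 CPM per kb for Atp1b2 and 67.9 ± 12.9 for Slc12a2 to 3.76 ± 0.759 for Bsnd. Atp1b2, Slc12a2 and Kcnj10 each exceeded the next gene in all 10 mice, and so did Kcnq1 over Bsnd. Kcne1 was above Kcnj16 in 7 of 10 mice and Kcnj16 above Kcnq1 in 9, and the ranges of these neighbours overlapped in the Veh group, those of Kcne1 and Kcnj16 in the NR group too. Among all tested genes, the length-scaled level of Atp1b2 was at the 98.3 percentile, that of Kcnj10 at the 93.3 and that of Bsnd at the 44.7 percentile.

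The spread between mice was wider in the Veh group, where Veh mice 3 and 4 had the highest levels of every gene. Leaving out the highest mice was likely to narrow that spread. The coefficient of variation of CPM was 14.3% to 24% with NR, and 26.1% (Kcnj10) to 51.9% (Bsnd) with Veh. Without Veh mice 3 and 4 the Veh value was 12% (Bsnd) to 18.7% (Kcne1) for 6 of the genes, at or below that of the NR group after rounding, and 33.2% for Kcnj16, against 20% with NR. These spreads were not compared by a test. The summed CPM of the 7 genes was 970, 1466, 1138, 1400 and 1097 in the NR mice and 1296, 1519, 1892, 2817 and 1696 in the Veh mice, with Veh mouse 4 highest and NR mouse 1 lowest. The genes moved together from mouse to mouse. Over the 10 mice the 21 pairwise correlations of log2 CPM had a median Pearson r of 0.86, and 15 pairs were at an adjusted permutation p of 0.05 (Spearman, 11 pairs). Subtracting the group means kept r between 0.58 and 0.97, with 17 pairs at that threshold, so the covariation did not rest on the group means alone. The deviations of both groups were pooled for this, and neither group was correlated on its own.

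Slc12a2, Kcnj10, Atp1b2 and Kcne1 formed the tightest set. Slc12a2 and Kcnj10, which act in different strial cells, had r = 0.98 and rho = 0.96 (n = 10 mice, permutation p = 1e-05, the smallest the resamples can give, adjusted p = 5e-05 over 21 pairs). The value was 0.96 after leaving out the 2 mice farthest from the median of Kcnj10. The mice left out were set by a single gene of each pair, so they differed between pairs. Slc12a2 with Atp1b2 had r = 0.97 and rho = 0.98, and 0.96 without the 2 mice farthest for Slc12a2. Kcnq1 with its partner Kcne1 had r = 0.95 and rho = 0.88, and 0.82 without the 2 mice farthest for Kcnq1. Kcnj16 was the loosest, at r = 0.55 and rho = 0.54 with Kcnj10 (n = 10, permutation p = 0.101, adjusted p = 0.101). It was at -0.22 with Atp1b2 once the 2 mice farthest for Kcnj16 were left out. Bsnd with Slc12a2 was at r = 0.60 and rho = 0.26, and at 0.03 without the 2 mice farthest for Slc12a2, so that relation rested on those mice. With the 2 farthest mice of each pair left out, 7 of the 21 pairs were at an adjusted permutation p of 0.05. All points share the library of a mouse and therefore its mixture of cells.

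**Figure D3:**
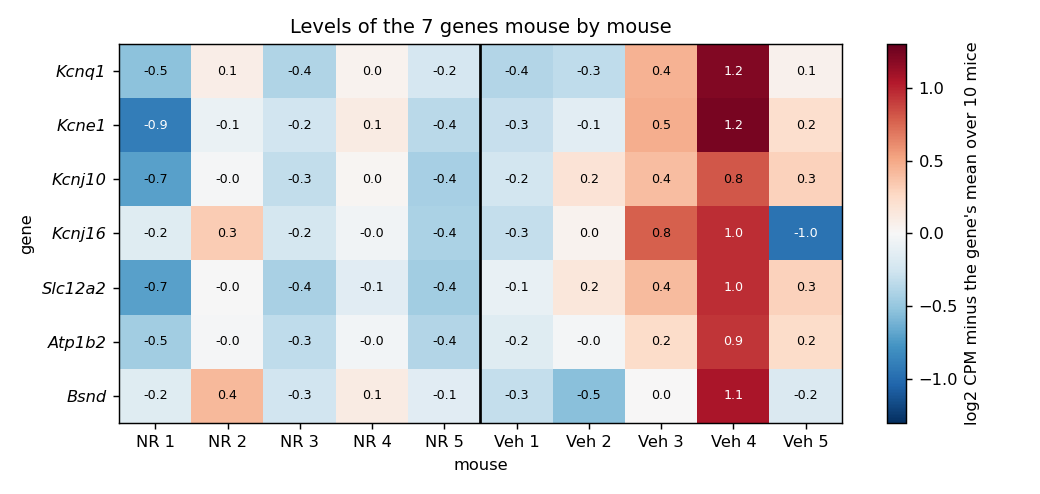
Log2 CPM of each gene (rows) in each mouse (columns), as the difference from the mean of that gene over the 10 mice, with red above and blue below it. The Veh 4 column is red throughout, from 0.8 to 1.2, the NR 1 column is blue throughout, and Kcnj16 in Veh 5, at -1.0, breaks from the other genes of that mouse.

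Subunits that can join in mixed channels were compared as ratios of CPM per kb within a mouse, by exact two-sided permutation tests. Such ratios do not depend on library scaling, and whether the subunits share a cell was not tested. The 2 ratios, with p adjusted over both, did not differ beyond the spread between mice. Kcnq1 to Kcne1 was at 0.726, 0.629, 0.506, 0.539 and 0.618 in the NR mice and at 0.53, 0.491, 0.552, 0.547 and 0.504 in the Veh mice, a log2 difference of 0.19 (exact permutation p = 0.0873, adjusted p = 0.175). It passed the unadjusted threshold without NR mouse 3 (0.25, exact permutation p = 0.0238). Kcnj10 to Kcnj16 was between 1.48 and 2.28 with NR and between 1.67 and 2.37 in 4 Veh mice, with Veh mouse 5 at 5.16, a log2 difference of -0.37 (exact permutation p = 0.254, adjusted p = 0.254). The value was -0.11 without Veh mouse 5 (exact permutation p = 0.516), and -0.67 without Veh mice 3 and 4 (exact permutation p = 0.0179, the smallest that 5 against 3 mice allow).

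**Figure D4:**
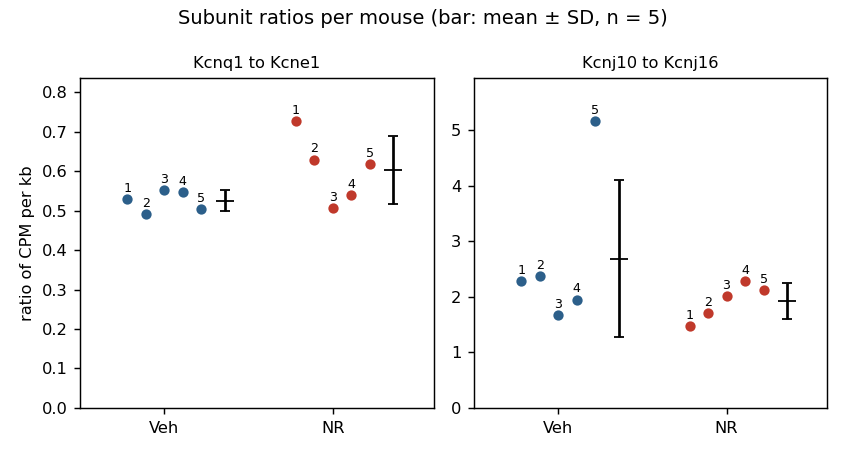
Ratio of CPM per kb of partner subunits in each Veh (blue) and NR (red) mouse, y axes from 0, digits giving the replicate and bars the mean ± SD (n = 5). The groups overlap in both panels, and Veh mouse 5 stands alone at 5.16 for Kcnj10 to Kcnj16.

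Among 15 other genes of potassium secretion and its control, all of which were tested, 1 was higher and 0 lower in edgeR at an unadjusted p of 0.05, against 4.83% and 4.88% of all tested genes, and none passed an adjusted p. DESeq2 put 1 lower and 1 higher past its unadjusted threshold. Of the 15, 9 had a log2 fold change below 0 and the median was -0.05. The higher gene in edgeR was Adrb1, the β1-adrenergic receptor, which stimulates strial potassium secretion. It was at 6.84, 5.41, 4.98, 4.98 and 4.92 CPM in the NR mice and at 4.22, 4.8, 3.97, 2.91 and 3.44 CPM in the Veh mice. Every NR mouse was above every Veh mouse (log2 fold change 0.49, SE 0.16, edgeR adjusted p = 0.436), which 0.769% of tested genes showed in that direction. With both Veh mice 3 and 4 left out, Adrb1 was at 0.39 (SE 0.18, edgeR adjusted p = 0.533), no longer past the unadjusted threshold, and the median of the 15 was 0.02.

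The 5 most abundant of the 15 per kilobase were, as Veh means, the pump subunits Atp1b1 (422 CPM per kb) and Atp1b3 (239), the pump regulator Fxyd6 (99.1), the background potassium channel Kcnk1 (58.2) and the kinase Stk39 (47.9). Their log2 fold changes were -0.10, -0.22, -0.11, -0.14 and 0.02 (SE 0.10, 0.11, 0.08, 0.08 and 0.11), and none passed the unadjusted threshold in edgeR. Stk39 and Oxsr1 encode kinases that activate NKCC1 by phosphorylation, and Oxsr1 was at 0.02 (SE 0.04). Their upstream kinase Wnk1 was at -0.10 (SE 0.06, edgeR adjusted p = 0.604).

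Of the strial cell types, intermediate cells had the most markers at a lower level in NR mice, with the 7 genes left out of each list and no marker past an adjusted p of 0.05. Of 11 intermediate cell markers, 7 were lower at the unadjusted threshold and none higher, against 4.88% and 4.83% of all tested genes. Their summed level was 684 to 999 CPM with NR and 1010 to 1752 CPM with Veh. These ranges did not overlap, but NR mouse 2 (999 CPM) lay close to Veh mouse 1 (1010 CPM). Of single genes, 0.878% separated the groups in the lower direction. In the fit lacking Veh mice 3 and 4, which called 5.58% of all tested genes lower, 6 of these markers were lower. Their median log2 fold change was -0.40 in place of -0.55. Among them were the melanin enzymes Dct (log2 fold change -0.96, SE 0.25, edgeR adjusted p = 0.408) and Tyr (-1.21, SE 0.28, edgeR adjusted p = 0.399), and the melanocyte transcription factor Mitf (-0.63, SE 0.14, edgeR adjusted p = 0.37). Pmel, another melanocyte gene, was at 0.04 (SE 0.15). Tyrp1 was listed at 0 to 1.39 CPM with Veh and at 0.447 to 1.5 CPM with NR. Of 8 marginal cell markers, 2 were lower and none higher, and the summed level was 634 to 918 CPM with NR and 720 to 1554 CPM with Veh. The 2 were the endocytic receptor Lrp2 (log2 fold change -0.70, SE 0.28, edgeR adjusted p = 0.476) and the matrix glycoprotein gene Emilin2 (-0.50, SE 0.12, edgeR adjusted p = 0.408), and the marginal cell transcription factor Esrrb was at -0.43 (SE 0.31, edgeR adjusted p = 0.666). Basal and spindle cell markers were at 1588 to 2099 CPM with NR and 1802 to 2980 CPM with Veh, with 3 of 9 lower, among them the tight junction gene Cldn11 (-0.43, SE 0.12, edgeR adjusted p = 0.411). Lower markers without Veh mice 3 and 4 numbered 1 of 8 for marginal cells (Emilin2, median of the list 0.00 in place of -0.35) and 1 of 9 for basal and spindle cells (Cldn11, median 0.00 in place of -0.20).

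Markers of other cells were counted at the same unadjusted threshold, which 4.88% of all tested genes passed in the lower and 4.83% in the higher direction, and their part in the results was not tested. Supporting cell and tectorial membrane markers were lower for 5 of 10 genes, at 817 to 1266 CPM with NR and 940 to 1932 CPM with Veh, and vestibular and otoconial markers for 3 of 8, at 310 to 430 and 351 to 687 CPM. Fibrocyte markers were lower for 1 and higher for 1 of 11, at 4210 to 6492 and 4679 to 8412 CPM. Hair cell markers were lower for 1 of 11, at 167 to 291 and 179 to 482 CPM. All 11 had a log2 fold change below 0, with a median of -0.49, where 52.9% of all tested genes were below 0. Below 0 were also 9 of 10 supporting cell (median -0.39), 8 of 11 fibrocyte (-0.19) and 4 of 8 vestibular markers (-0.15). Without Veh mice 3 and 4 these medians were 0.10, -0.01, 0.04 and 0.00. Satellite glia, the other main home of Kcnj10, had 1 of 6 markers lower, at 6274 to 7481 CPM with NR and 6318 to 8025 CPM with Veh, and Schwann cells had none of 10, at 4667 to 6736 and 4779 to 6037 CPM. Spiral ganglion neuron markers were higher for 2 of 10, at 7004 to 7902 and 5829 to 8334 CPM. Bone markers were higher for 2 of 9 and below 0 for 3, at 864 to 3350 CPM with NR and 597 to 1370 CPM with Veh. Skeletal muscle markers were higher for 7 of 9, at 19.1 to 926 and 17.7 to 88.7 CPM. Adipocyte markers were higher for 5 of 7 tested. Their sum, which includes the untested Lep and Ucp1, was 95.1 to 242 CPM with NR and 43.7 to 89.9 CPM with Veh. These ranges did not overlap, but NR mouse 4 (95.1 CPM) lay close to Veh mouse 2 (89.9 CPM). Of single tested genes, 0.769% separated the groups in the higher direction. The muscle sum was high in NR mice 3 and 5, at 926 and 682 CPM, and at 19.1, 34.8 and 89.4 CPM in the other NR mice. When Veh mice 3 and 4 were left out, 5.58% of 18671 tested genes were called lower and 4.11% higher. No supporting cell, vestibular, fibrocyte, hair cell or satellite glia marker was then lower. Higher were 3 supporting cell, 1 hair cell, 1 satellite glia, 1 spiral ganglion, 2 bone, 4 muscle and 5 adipocyte markers. None of 12 blood markers passed, at 11511 to 16122 CPM with NR and 5965 to 19932 CPM with Veh, and 2 were lower without Veh mice 3 and 4. No list had a marker without reads in all 10 mice.

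**Figure D5:**
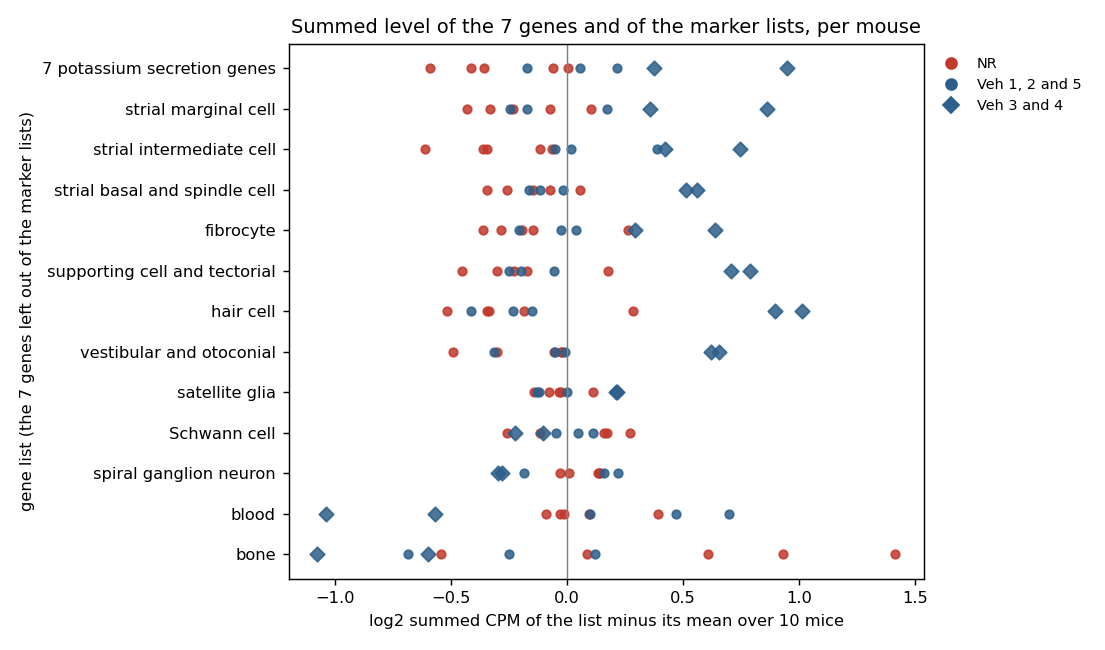
Summed CPM of the 7 genes and of each marker list per mouse, on a log2 scale as the difference from the mean of the list over the 10 mice, with NR mice red, Veh mice 1, 2 and 5 as blue circles and Veh mice 3 and 4 as blue diamonds. The diamonds are the highest points for the 7 genes and for the strial, fibrocyte, supporting, hair cell, vestibular and satellite glia lists, and lie to the low side for blood and bone. The muscle and adipocyte lists, which range more widely, are not drawn.

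Genes whose mouse-to-mouse pattern was most like that of the 7 were ranked by Pearson r, over the 10 mice, to the mean of the 7 standardized log2 CPM profiles. The 10 at the top were Rundc1 (r = 0.984), the proprotein convertase Pcsk6 (0.983), the collagen receptor Ddr2 (0.981), Rnf222 (0.979), Rab11fip4 (0.978), the kinase Dclk1 (0.976), the ubiquitin ligase Znrf2 (0.976), Hspa4l (0.976), the phospholipase Plce1 (0.975) and the sodium and myo-inositol cotransporter Slc5a11 (0.972). Without Veh mice 3 and 4 their r was 0.902 to 0.941. Of 18322 genes, 275 (1.5%) had an r above 0.9, and among the marker lists these included genes of several cell types: the marginal cell genes Lrp2 (0.97), Heyl (0.94) and Esrrb (0.94), the basal cell genes Tjp1 (0.91) and Cldn11 (0.90), the hair cell genes Myo7a (0.93) and Tmc1 (0.90), the otoconial and tectorial genes Otogl (0.92) and Otol1 (0.91), and the supporting cell gene Otoa (0.90). Without Veh mice 3 and 4 the r of these marker genes was 0.62 (Tjp1) to 0.93 (Otol1). Other marginal cell markers had a lower r over the 10 mice, such as Emilin2 (0.74), Hmx2 (0.66) and Abcg1 (0.33). Of the 7 themselves, each of which is part of that mean, Kcnq1 was nearest to the shared profile (0.979) and Kcnj16 farthest from it (0.736). Without Veh mice 3 and 4 Kcnj16 was at 0.144 and Bsnd at 0.447. The others were then at 0.845 (Slc12a2) to 0.897 (Kcnj10). These values describe 10 libraries that share their cell mixtures, and carry no test.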

How the data were processed

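Cochlear RNA of 10 mice was sequenced (poly(A) selected, paired-end), and each mouse gave 1 library. The authors deposited raw read counts per gene: per the submitters' processing notes reads were aligned to mm10 with STAR 2.6.1d and counted with featureCounts 1.5.0. The strand setting used for counting was the default of that tool, which ignores strand, and the annotation release was not given in the sources used here. Groups came from the sample labels.

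The tables hold 54532 genes, 33224 of them with a read. The 18329 genes kept by filterByExpr were tested with edgeR 4.0.16 (R 4.3.3; TMM, quasi-likelihood F test, no covariates), with Benjamini-Hochberg adjustment over all of them. The SE of a log2 fold change is its size divided by the square root of F. Log2 CPM used a prior count of 2. Single values were tested by exact permutation over 252 labelings (scipy 1.17.1), and correlations with 100000 resamples. CPM per kb used the gene length in the deposited tables. Alternatives were DESeq2 1.42.0 (test and size factors), no filter, a stricter filter (1 CPM in 5 mice), robust dispersion, a replicate block, and leaving out mice. On counts simulated for NR against Veh over 18141 genes, edgeR recovered at an adjusted p of 0.05 32.8% of genes changed by 0.5 on the log2 scale, 71.6% by 1 and 86.4% by 2. Each gene was simulated independently, without outlying mice or genes that vary together, so these shares are not the power in the real data.

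Total reads were 17060379 to 24419230 a mouse, and no libraries of the same group agreed within sampling noise (chi-square per degree of freedom 10.9 to 118). Libraries of different groups were not compared in this way. Mice are separate animals, so p-values measure the spread between them. Named beside the 7 genes were those of 15 further potassium genes past the unadjusted threshold or among the 5 most abundant, the 10 genes most like the 7, and markers describing 14 lists. The genes and lists were chosen with earlier results of these data known, so counts over them are descriptions. Some planned genes and subunit ratios are not reported here. Gene positions in the files match GENCODE M21 for all 7.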

Additional observations from a re-analysis of the deposited data

Results flagged for a closer look

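Across 18 groups of 5 mice (each gene and each subunit ratio in each treatment), 3 had a highest mouse far from the next. Its gap to the next, divided by the range of the group, exceeded the Dixon critical value of 0.71, where chance marks about 1 in 20. The groups share mice and hold genes that vary together, so this rate cannot be set against the count of 3. Atp1b2 in Veh mouse 4 was at 937 CPM, with the next Veh mouse at 581 CPM (gap 0.715 of the range). Bsnd in the same mouse was at 21.4 CPM, with the next at 10.3 CPM (0.772). The ratio of Kcnj10 to Kcnj16 in Veh mouse 5 was 5.16, with the next at 2.37 (0.799).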

How the results depend on the processing

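All 7 edgeR log2 fold changes kept their direction and their side of the unadjusted threshold with DESeq2 size factors, DESeq2's Wald test, robust dispersion, either other filter and the replicate block. Replicate numbers do not pair the mice (r of same-numbered mice between -0.22 and 0.17, and 1 of 5 correlated best with its own number). With the replicate block the log2 fold changes were -0.69 for Slc12a2, -0.58 for Kcnj10, -0.60 for Kcne1 and -0.49 for Atp1b2, with 879 genes higher, 776 lower and 0 at an adjusted p, and 1 of the other potassium genes lower. No filter gave 1414 genes higher. DESeq2 called 103 genes and 1 of the 7 at an adjusted p, and 1 other potassium gene lower. Without Veh mice 3 and 4, chosen after seeing the data, 1 of the 7 was lower, 0 of the other potassium genes were higher, and the log2 fold changes were 0.03 for Kcnq1, -0.2 for Kcne1, -0.36 for Kcnj10, 0.28 for Kcnj16, -0.25 for Atp1b2 and 0.36 for Bsnd, with -0.67 for Kcnj10 to Kcnj16. Scaling to the library total turned the Bsnd log2 CPM difference from -0.01 to 0.01. Without the 2 mice farthest from the median, chosen pair by pair, 7 pairs were correlated at an adjusted p of 0.05, against 15 with all mice. In these cases the cause was not tested.

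Leaving out 1 mouse at a time gave 669 to 1414 genes higher (most without NR mouse 2), 484 to 1059 lower (521 without NR mouse 1, 484 without NR mouse 3 and 558 without Veh mouse 3), 0 to 1 at an adjusted p, 3 to 5 of the 7 lower, and 0 to 1 of the other potassium genes lower (1 without NR mouse 2 or Veh mouse 2). Log2 fold changes ranged from -0.79 to -0.35 for Kcne1, -0.63 to -0.17 for Kcnq1 and -0.23 to 0.26 for Bsnd. Differences in mean log2 CPM ranged from -0.74 to -0.36 for Kcne1, -0.71 to -0.45 for Kcnj10, -0.47 to 0.01 for Kcnj16, -0.59 to -0.32 for Atp1b2 and -0.15 to 0.25 for Bsnd, and the Kcnq1 to Kcne1 log2 ratio from 0.12 to 0.25. The exact permutation p of Kcnj10 and Atp1b2 exceeded 0.05 without NR mouse 1, 3 or 5 or Veh mouse 3, 4 or 5 (up to 0.0714), where 5 against 4 mice allow no p below 0.00794. Bsnd, at 157 to 485 reads, is the gene whose value depth limits most.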
